A study of Homo sapiens with 12 samples.

Results

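The dependence of the CITCO response on the constitutive androstane receptor (CAR) was measured in HepaRG cells as 1 quantity per gene. This was the change after CITCO in cells labelled as CAR knockout minus the change after CITCO in wild-type cells. Of the 15822 loci deposited, all 15792 that reached 1 CPM in 2 or more libraries were taken, so the choice of loci did not use the response. The second-highest library held 1.01 CPM at the 2 loci just inside that limit (KCNE1 and RP11-471M2.3) and 0.997 CPM at the 2 just outside it.

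HepaRG is a human hepatoma line that differentiates into hepatocyte-like and biliary-like cells. The 4 groups were cells labelled hCAR-KO (here KO) treated with CITCO, KO cells given the solvent DMSO, wild-type (WT) cells treated with CITCO and WT cells given DMSO, with 2 libraries each. The same series also holds both genotypes treated with phenobarbital (PB), 2 libraries each, and these enter the estimate of spread and a later comparison. Nothing in the labels says that duplicates came from separate cultures, and the p-values then cover only library-to-library spread that may be technical. The sources used here do not give the doses, the length of exposure, the lesion in the CAR gene, the number of KO clones or the strandedness of the libraries.

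CAR, encoded by NR1I3, is a nuclear receptor of hepatocytes that pairs with the retinoid X receptor and switches on genes of drug metabolism. CITCO is a synthetic ligand that binds human CAR directly, and PB activates it indirectly. The pregnane X receptor (PXR, NR1I2) has many of the same target genes, and both receptors recognise pairs of the DNA half-site AGGTCA. CYP2B6 is the textbook target gene of human CAR and CYP3A4 that of PXR.

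A level is given in CPM, reads per 1e6 reads of an effective library size. A response is the mean log2(CPM + 0.5) after CITCO minus that after DMSO, and the difference is the response in KO minus the response in WT, so a negative difference means a smaller rise or a larger fall in KO. A called difference or response has a Benjamini-Hochberg adjusted p under 0.05 in limma, over all loci tested, and the words higher, lower, rose and fell are kept for called values. Brackets hold 95% confidence intervals.

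The 12 libraries held 49258123 to 66453415 reads in the listed loci. NR1I3 itself held 9.63 and 10.7 CPM in KO CITCO, 11.0 and 10.6 CPM in KO DMSO, 9.70 and 9.33 CPM in WT CITCO, and 11.5 and 11.97 CPM in WT DMSO. In DMSO both KO libraries lay slightly below both WT libraries, and under CITCO the genotypes overlapped. KO minus WT in DMSO was -0.12 [-0.30, 0.07] on the log2 scale and was not called (limma, adjusted p = 0.273). A count over a whole gene does not show a small lesion, so these values do not check the genotype labels. The 14 tested of 15 hepatocyte markers summed to 61040 and 61620 CPM in KO CITCO, 64280 and 62410 CPM in KO DMSO, 144000 and 143900 CPM in WT CITCO, and 162000 and 157100 CPM in WT DMSO. The 7 tested of 13 biliary and progenitor markers summed to 254 to 286 CPM in the KO libraries and 614 to 658 CPM in the WT libraries, and the 3 tested of 10 endothelial and immune markers to 87.2 to 96.0 CPM in the KO libraries and 107 to 118 CPM in the WT libraries. The biliary and progenitor markers did not all go the way of their sum. KRT19 had means of 83.9 CPM in KO DMSO and 407 CPM in WT DMSO, and CD24, SOX9 and CLDN4 also lay below WT. SOX4 (40.2 CPM in KO DMSO and 18.5 CPM in WT DMSO), SPP1 (29.3 and 11.9 CPM) and KRT7 (1.92 and 0.947 CPM) lay above WT. Genotypes differed in these marker sums under both treatments, no tested marker had a group mean of 0, and the part of this in the results below was not tested. In bulk RNA, fewer cells of a type and less RNA per cell cannot be told apart.

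On the log2 scale, the CITCO response of CYP2B6, its pseudogene CYP2B7P, CYP2A6 and GPX2 was mostly missing in KO cells. On that scale the response of CYP3A4, CYP2C8, AKR1B10, AKR1C2 and AKR1C1 was smaller in KO, and that of CYP1A1 was larger. The difference was called at 53 loci, 0.336% of those tested. Of these, 17 were positive (0.108% of loci tested) and 36 negative (0.228%), and 1996 loci had an unadjusted p under 0.05. With 1 library left out, between 23 and 491 loci were called, the fewest without KO CITCO replicate 1 and the most without WT DMSO replicate 2. The difference was at least 2-fold at 2 of the positive and 12 of the negative loci. Of the negative loci, 8 are near-identical copies of 1 ribosomal RNA gene, RNA5-8S5, all among these 12, which leaves 28 others, with CYP2B6, CYP2B7P, CYP2A6 and GPX2 past 2-fold. The response itself was called at 128 loci in KO (0.811%), of which 61 rose (0.386%) and 67 fell (0.424%). In WT it was called at 348 loci (2.2%), of which 187 rose (1.18%) and 161 fell (1.02%). With libraries scaled to their totals the split was 85 higher and 55 lower in KO and 252 higher and 102 lower in WT. The median difference over all loci was 0.01 on the log2 scale.

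The 53 loci fall into a few shapes. At 18 negative loci CITCO raised the gene in WT with no called response in KO, and at 9 it raised the gene in both genotypes, more so in WT. The other 9 negative loci, KRT19 and 8 copies of RNA5-8S5, fell in KO with no called response in WT. Among the positive loci, 8 fell in WT with no called response in KO, 4 rose in KO with none called in WT, 4 had no called response in either genotype, and CYP1A1 rose in both, more so in KO. Just outside the threshold lay MICU3 with a difference of 0.80 (adjusted p = 0.0516), ELAVL3 with -0.49 (adjusted p = 0.0549) and CCDC124 with -0.56 (adjusted p = 0.0592).

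**Figure D1:**
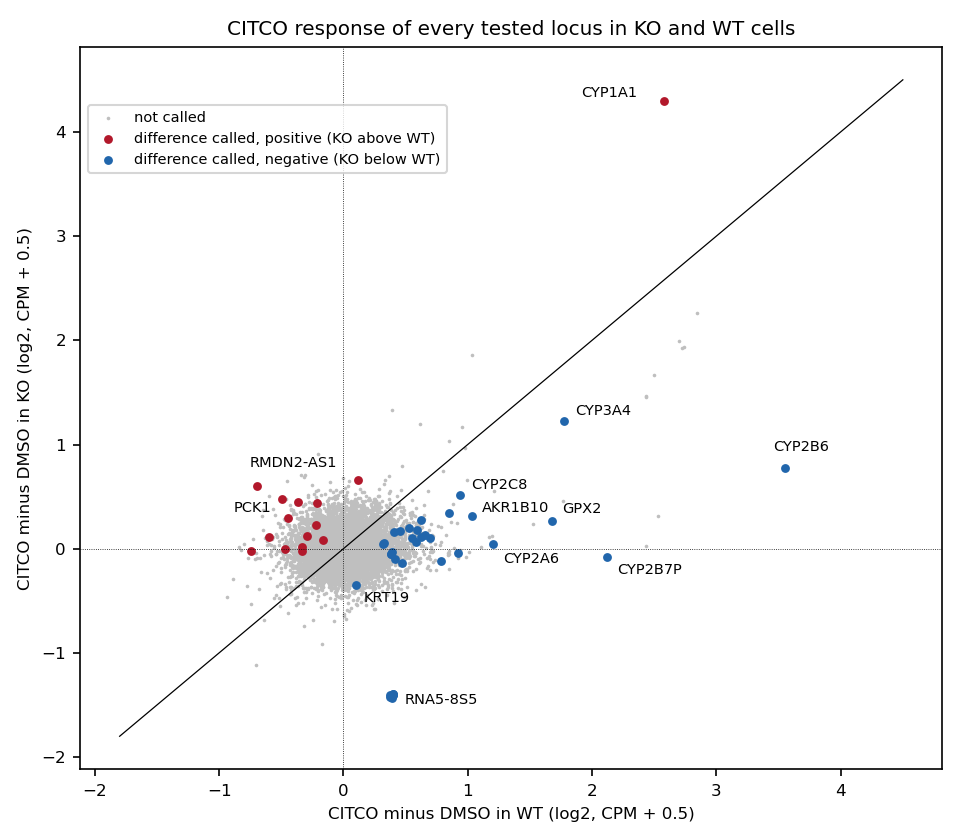
CITCO minus DMSO in KO (vertical axis) against CITCO minus DMSO in WT (horizontal axis), log2(CPM + 0.5), for the 15792 tested loci, with the line of equal response. Called differences are coloured, and CYP2B6 lies farthest below the line, at 0.78 in KO and 3.55 in WT, while CYP1A1 lies above it, at 4.30 and 2.58.

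CYP2B6, the cytochrome P450 that metabolises bupropion and efavirenz, had the largest negative difference of all tested loci. It held 17.4 and 16.1 CPM in KO CITCO, 10.2 and 8.95 CPM in KO DMSO, 435 and 424 CPM in WT CITCO, and 35.2 and 37.1 CPM in WT DMSO. CITCO libraries lay above DMSO libraries in both genotypes, but every KO library lay below every WT library. The rise was 1.75-fold in KO and 11.9-fold in WT, on the log2 scale 0.78 and 3.55, so that KO kept 21.8% of the log2 response of WT. The difference was -2.78 [-2.95, -2.60], with an adjusted p of 3.52e-13. The promoter window of CYP2B6 is shown because this gene had the largest negative difference. It is the RefSeq sequence from 250 bases before to 50 after the start of the gene (GRCh38.p14, chr19:40991032-40991331, plus strand), with the nuclear receptor half-site AGGTCA in capitals. That half-site, searched on both strands, is in 13.8% of 35116 RefSeq promoters of this length, and the well-known phenobarbital-responsive enhancer of CYP2B6 lies upstream of the window.
CYP2B6: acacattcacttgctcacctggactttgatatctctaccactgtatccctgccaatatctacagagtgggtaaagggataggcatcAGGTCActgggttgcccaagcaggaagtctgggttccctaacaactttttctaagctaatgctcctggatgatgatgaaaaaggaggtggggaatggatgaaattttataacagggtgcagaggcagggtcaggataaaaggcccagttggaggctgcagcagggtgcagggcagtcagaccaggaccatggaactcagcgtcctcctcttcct

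CYP2B7P, a pseudogene next to CYP2B6 that shares much of its sequence, showed the same shape. Its levels were 7.73 and 7.32 CPM in KO CITCO, 7.64 and 8.32 CPM in KO DMSO, 42.0 and 39.5 CPM in WT CITCO, and 9.86 and 8.16 CPM in WT DMSO. The KO groups overlapped, and WT CITCO stood alone above the other 3 groups. The difference was -2.20 [-2.47, -1.94], and the response was -0.08 in KO (adjusted p = 0.828), while WT rose 4.52-fold. Because the reads of the gene and the pseudogene can be confused, the split between them is uncertain.

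CYP2A6, the nicotine-oxidising P450 of the same chromosome 19 cluster, also had no called response in KO, but its level in DMSO was higher in KO than in WT. It held 116 and 112 CPM in KO CITCO, 113 and 108 CPM in KO DMSO, 137 and 142 CPM in WT CITCO, and 59.1 and 61.8 CPM in WT DMSO. KO CITCO and KO DMSO overlapped, and both lay above WT DMSO and below WT CITCO. The response was 0.05 in KO (adjusted p = 0.799), while WT rose 2.31-fold, a difference of -1.16 [-1.30, -1.02] with an adjusted p of 9.49e-09. CYP2A13, a close paralogue with which CYP2A6 may share reads, held 0.932 and 0.791 CPM in KO CITCO, 1.24 and 1.26 CPM in KO DMSO, 3.87 and 4.12 CPM in WT CITCO, and 2.92 and 2.39 CPM in WT DMSO, and its difference of -0.88 did not pass (adjusted p = 0.0764).

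**Figure D2:**
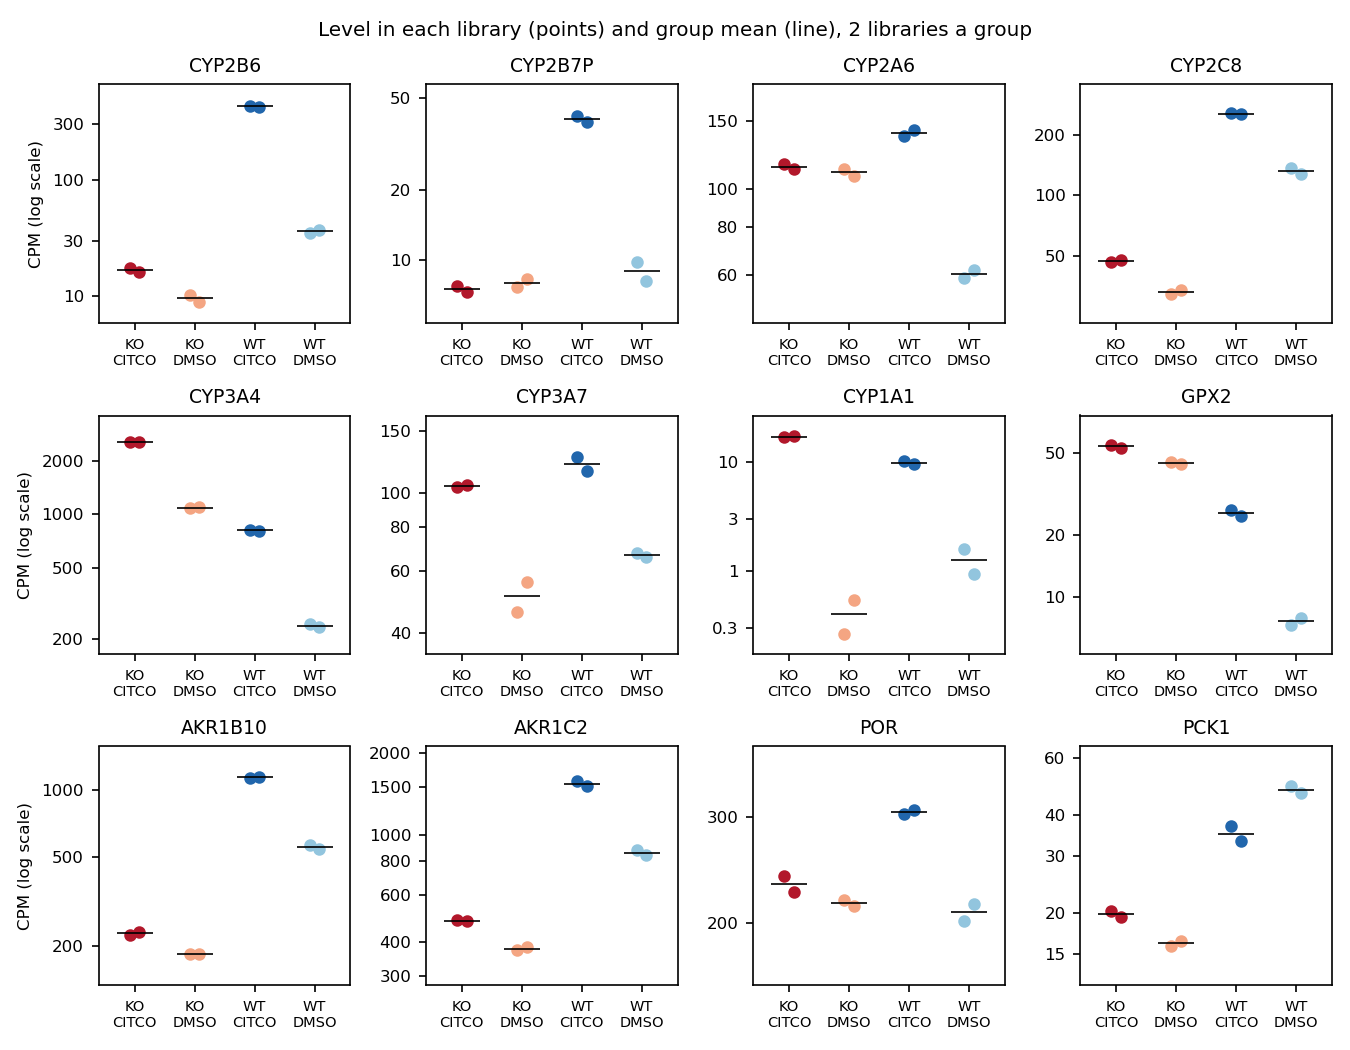
Level of 12 genes in each of the 8 libraries (points) with the mean of the 2 libraries (line), in CPM on log axes that differ between panels. For CYP2B7P, WT CITCO at 42.0 and 39.5 CPM is the group that stands apart, and for CYP3A4 the KO libraries lie above the WT libraries under each treatment.

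CYP3A4, the P450 with the widest range of drug substrates, kept most of its log2 response in KO. It held 2546 and 2544 CPM in KO CITCO, 1080 and 1101 CPM in KO DMSO, 818 and 807 CPM in WT CITCO, and 242 and 232 CPM in WT DMSO. The KO libraries lay above the WT libraries under both treatments, and CITCO lay above DMSO in both genotypes. CITCO raised it 2.33-fold in KO and 3.43-fold in WT, or by 1.22 and 1.78 on the log2 scale, a difference of -0.55 [-0.66, -0.45] with an adjusted p of 4.93e-06. On the linear scale the sign is the opposite, since CITCO added 1455 CPM in KO and 576 CPM in WT, from a KO DMSO level 4.61-fold that of WT DMSO. The promoter of CYP3A4 is shown because it holds a pair of half-sites that CAR and PXR are known to bind, the everted repeat known as ER6 (TGAACT, then 6 bases of any kind, then AGGTCA), in capitals (GRCh38.p14, chr7:99784135-99784434, minus strand, RefSeq). This repeat, which includes the half-site searched for above and was searched on both strands, is in 3 of 35116 promoters (0.00854%), and CYP3A5 is another of them.
CYP3A4: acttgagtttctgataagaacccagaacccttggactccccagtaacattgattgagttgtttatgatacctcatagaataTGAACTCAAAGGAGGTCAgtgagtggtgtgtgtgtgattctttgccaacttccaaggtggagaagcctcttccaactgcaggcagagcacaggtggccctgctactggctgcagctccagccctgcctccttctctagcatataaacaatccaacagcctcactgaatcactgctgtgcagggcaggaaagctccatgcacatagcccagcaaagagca

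The other CYP3A genes had no called difference. CYP3A7, the main CYP3A enzyme of fetal liver, held 104 and 105 CPM in KO CITCO, 45.9 and 56.0 CPM in KO DMSO, 126 and 116 CPM in WT CITCO, and 67.7 and 66.0 CPM in WT DMSO. Both genotypes rose, by 1.04 in KO and 0.85 in WT on the log2 scale, and the interval of the difference, 0.19 [-0.04, 0.42], spans 0. CYP3A5, a polymorphic relative, rose by 0.33 in KO and had 0.16 in WT (adjusted p = 0.0537), with a difference of 0.16 (adjusted p = 0.279). CYP3A43, at means of 5.53 CPM in KO CITCO, 3.31 CPM in KO DMSO, 2.42 CPM in WT CITCO and 0.940 CPM in WT DMSO, had a difference of -0.33 (adjusted p = 0.579). Within this gene cluster the differences therefore ran between -0.55 and 0.19, and CYP3A4 was the member called.

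CYP2C8 and CYP2C18 rose in both genotypes. CYP2C8, which oxidises paclitaxel, held 46.5 and 47.7 CPM in KO CITCO, 32.1 and 33.7 CPM in KO DMSO, 257 and 253 CPM in WT CITCO, and 137 and 128 CPM in WT DMSO. No KO library reached any WT library, and CITCO lay above DMSO in each genotype. Its response was 0.51 in KO and 0.94 in WT, a difference of -0.43 [-0.57, -0.29] (adjusted p = 0.00457), and it was no longer called without KO CITCO replicate 1. CYP2C18 had responses of 0.30 in KO and 0.55 in WT, both called, and a difference of -0.25 that was not (adjusted p = 0.0932).

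Over the 11 tested of 13 listed P450 genes known as CAR and PXR targets, CITCO raised 7 in KO and 9 in WT and lowered none. The difference was called negative for 6 of the 11 and positive for none, with a median of -0.43 against 0.01 over all loci. Of all loci tested, 0.386% rose in KO, 1.18% rose in WT and 0.228% had a called negative difference. The list was written with earlier results of these data known and is not independent evidence of its direction. CYP2A7 and CYP2C19 were not used here, as no locus carries these names.

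The P450s need electrons and heme. POR, the reductase that passes electrons to all microsomal P450s, held 239 and 225 CPM in KO CITCO, 219 and 213 CPM in KO DMSO, 304 and 308 CPM in WT CITCO, and 202 and 215 CPM in WT DMSO. WT CITCO stood apart, and the other 3 groups lay within 202 to 239 CPM. The response was 0.10 in KO (adjusted p = 0.412) and 0.55 in WT, a difference of -0.45 [-0.59, -0.31]. CYB5A, cytochrome b5, rose by 0.16 in KO and 0.41 in WT, a difference of -0.25 (adjusted p = 0.0303), lost when any of 8 libraries was left out. ALAS1, which makes the first intermediate of heme, had means of 60.8 CPM in KO CITCO, 57.7 CPM in KO DMSO, 76.9 CPM in WT CITCO and 69.5 CPM in WT DMSO, with a difference of -0.07 [-0.23, 0.08]. Of the 13 tested genes of electron and heme supply, 2 had a called negative difference and none a positive one, and the median was -0.04. The share with a called negative difference over all loci tested was 0.228%.

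In the conjugation list, EPHX1, UGT2B4 and UGDH had a called difference. EPHX1 and UGDH are on this list but do not conjugate. EPHX1, the microsomal epoxide hydrolase, held 458 and 455 CPM in KO CITCO, 409 and 388 CPM in KO DMSO, 1321 and 1344 CPM in WT CITCO, and 930 and 921 CPM in WT DMSO. It rose in both genotypes, 1.15-fold in KO and 1.44-fold in WT, with a difference of -0.33 [-0.43, -0.23]. UGT2B4, a glucuronosyltransferase of bile acids, held 269 and 269 CPM in KO CITCO, 236 and 240 CPM in KO DMSO, 698 and 695 CPM in WT CITCO, and 483 and 444 CPM in WT DMSO. Its rise was called in WT, at 0.59, and not in KO, at 0.18 (adjusted p = 0.0623), and the difference was -0.41 [-0.54, -0.29]. UGDH, which makes the glucuronate donor, had a difference of -0.27 (adjusted p = 0.0365) that was lost in 10 of the 22 alternative settings.

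UGT1A1, the bilirubin glucuronosyltransferase, had means of 703 CPM in KO CITCO, 665 CPM in KO DMSO, 1004 CPM in WT CITCO and 820 CPM in WT DMSO. No locus carries the names UGT1A3, UGT1A4, UGT1A6 or UGT1A9, so the UGT1A1 locus may cover other genes of the UGT1A cluster. The UGT1A1 response was called in WT at 0.29, and the difference of -0.21 [-0.31, -0.11] did not pass (adjusted p = 0.0681). SULT2A1, a hydroxysteroid sulfotransferase, likewise had 0.10 in KO and a called 0.32 in WT, with a difference of -0.22 (adjusted p = 0.0923). Of the 21 tested genes of the conjugation list CITCO raised 1 in KO, EPHX1, and 10 in WT, against 0.386% and 1.18% of all loci tested. The difference was called negative for 3, against 0.228% of all loci, and positive for none, with a median of -0.16.

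Genes of the oxidant response formed the other group with many called differences. NRF2 is the transcription factor that raises antioxidant and reductase genes. Of 14 tested NRF2 targets CITCO raised 4 in KO and 10 in WT, against 0.386% and 1.18% of all loci tested. The difference was called negative for 5, GPX2, AKR1B10, SRXN1, AKR1C2 and AKR1C1, against 0.228% of all loci, with a list median of -0.18. The classical targets GCLM and TXNRD1 rose in WT by 0.27 and 0.20, with differences of -0.18 and -0.10 that were not called, and SLC7A11, the cystine carrier, rose in both genotypes, by 0.56 in KO and 0.47 in WT. HMOX1, at 15.8 CPM in KO CITCO, 15.6 CPM in KO DMSO, 19.6 CPM in WT CITCO and 18.9 CPM in WT DMSO, had a difference of -0.04 (adjusted p = 0.914).

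GPX2, a glutathione peroxidase of epithelial cells, rose with CITCO in WT, while KO libraries held more of it under either treatment. It held 54.8 and 52.6 CPM in KO CITCO, 45.2 and 44.0 CPM in KO DMSO, 26.4 and 24.8 CPM in WT CITCO, and 7.36 and 7.95 CPM in WT DMSO. All 4 KO libraries lay above all 4 WT libraries. The response was 0.27 in KO (adjusted p = 0.0574) and 1.68 in WT, or 1.21-fold and 3.35-fold, and the difference was -1.41 [-1.60, -1.23] with an adjusted p of 3.19e-08. The promoter of GPX2 is printed because it holds the antioxidant response core TGACNNNGC, on the reverse strand of the gene and in capitals (GRCh38.p14, chr14:64942696-64942995, minus strand, RefSeq). The core, searched on both strands, is in 13.3% of 35116 promoters. Among the named genes it was also found for CYP2B6, MKI67, CXCL13 and CYP4F8, and it was not found for the NRF2 target SRXN1.
GPX2: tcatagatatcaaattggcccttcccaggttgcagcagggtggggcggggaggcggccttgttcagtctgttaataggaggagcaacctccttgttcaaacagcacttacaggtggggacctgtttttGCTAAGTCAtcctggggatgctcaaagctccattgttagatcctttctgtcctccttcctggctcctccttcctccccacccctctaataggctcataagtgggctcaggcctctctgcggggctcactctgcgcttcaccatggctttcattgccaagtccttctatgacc

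AKR1B10, an aldo-keto reductase of retinal and lipid aldehydes, held 225 and 231 CPM in KO CITCO, 185 and 183 CPM in KO DMSO, 1132 and 1139 CPM in WT CITCO, and 563 and 545 CPM in WT DMSO. It rose in both genotypes, 1.24-fold in KO and 2.05-fold in WT, at levels in KO below those in WT. The difference was -0.72 [-0.82, -0.62], with an adjusted p of 5.07e-08. Its neighbour AKR1B15 reached 0.785 and 0.605 CPM in KO CITCO, and 5.80 and 7.33 CPM in WT CITCO, with a difference of -1.29 that was not called (adjusted p = 0.129).

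AKR1C2 and AKR1C1, which reduce steroids, also rose less in KO. AKR1C2 held 484 and 479 CPM in KO CITCO, 374 and 383 CPM in KO DMSO, 1575 and 1513 CPM in WT CITCO, and 874 and 844 CPM in WT DMSO, with a difference of -0.50 [-0.60, -0.40]. AKR1C1 held 771 and 767 CPM in KO CITCO, 681 and 685 CPM in KO DMSO, 1854 and 1831 CPM in WT CITCO, and 1348 and 1338 CPM in WT DMSO, with a difference of -0.29 [-0.37, -0.20]. Both rose in each genotype, and both lay lower in KO than in WT at either treatment. AKR1C4 had no called response, with 0.05 in KO and 0.18 in WT, and a difference of -0.12 (adjusted p = 0.703), and AKR1B1 had a difference of 0.63 (adjusted p = 0.398). So 3 of 6 tested AKR1B and AKR1C genes had a called difference, against 0.336% of all loci tested. They were grouped with earlier results of these data known, so the count is not independent evidence. These paralogues may share reads, which leaves their separate values uncertain, and AKR1C3 was not used here.

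SRXN1, the sulfiredoxin that restores peroxiredoxins, overlapped between the genotypes in DMSO. It held 53.7 and 54.6 CPM in KO CITCO, 50.3 and 53.4 CPM in KO DMSO, 79.4 and 80.3 CPM in WT CITCO, and 54.3 and 51.8 CPM in WT DMSO. WT CITCO alone stood apart, and the difference was -0.52 [-0.67, -0.38]. TRIM16L, a locus related to the ubiquitin ligase gene TRIM16, and CDRT1 also rose in WT with no called response in KO. TRIM16L held 55.3 and 59.3 CPM in KO CITCO, 53.1 and 51.4 CPM in KO DMSO, 69.7 and 69.4 CPM in WT CITCO, and 43.9 and 44.1 CPM in WT DMSO. The differences were -0.52 for TRIM16L and -0.51 for CDRT1, and the second was lost without KO CITCO replicate 1.

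**Figure D3:**
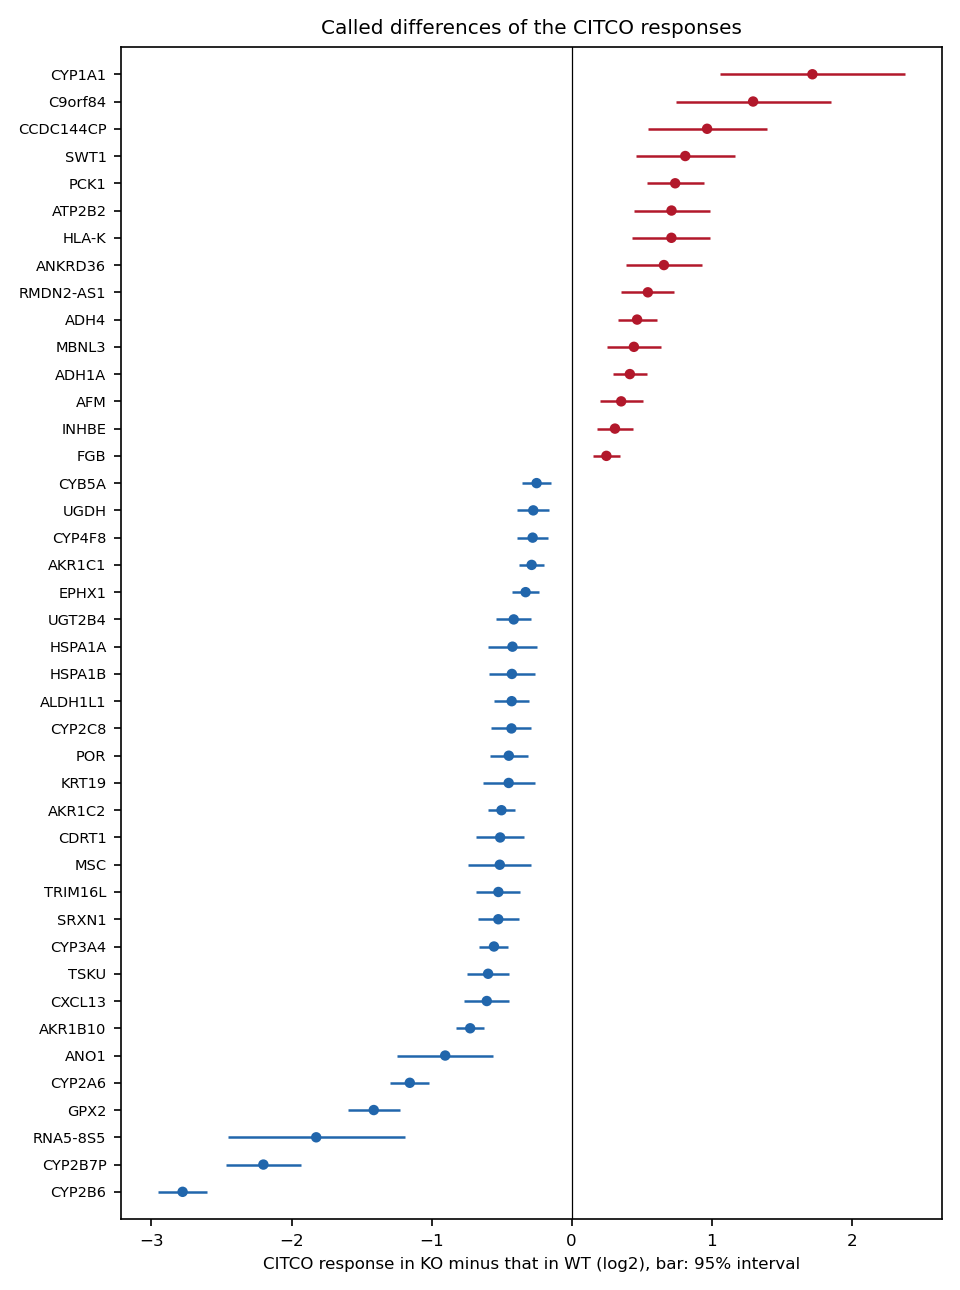
Difference of the CITCO responses (KO minus WT, log2) for the 42 named genes whose difference was called, with 95% confidence intervals. The intervals are widest for genes with few reads, such as CYP1A1 [1.06, 2.38], and narrow for abundant genes such as AKR1B10 [-0.82, -0.62].

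CYP1A1, the P450 induced through the aryl hydrocarbon receptor (AhR), had the largest positive difference of all tested loci. It held 16.9 and 17.3 CPM in KO CITCO, 0.268 and 0.540 CPM in KO DMSO, 10.2 and 9.57 CPM in WT CITCO, and 1.58 and 0.944 CPM in WT DMSO. CITCO libraries lay far above DMSO libraries in both genotypes, with KO highest after CITCO and lowest after DMSO. The rise was 42.3-fold in KO and 7.81-fold in WT, on the log2(CPM + 0.5) scale 4.30 and 2.58. The difference was 1.72 [1.06, 2.38] (adjusted p = 0.0153), and it was not called when any of 6 libraries of the 4 groups was left out. Both DMSO groups were near or under 1 CPM, so the fold depends on few reads. The promoter of CYP1A1 is printed with GCGTG, the core of the site bound by AhR and its partner, in capitals (GRCh38.p14, chr15:74725479-74725778, minus strand, RefSeq). The core, searched on both strands, is in 36.5% of 35116 promoters.
CYP1A1: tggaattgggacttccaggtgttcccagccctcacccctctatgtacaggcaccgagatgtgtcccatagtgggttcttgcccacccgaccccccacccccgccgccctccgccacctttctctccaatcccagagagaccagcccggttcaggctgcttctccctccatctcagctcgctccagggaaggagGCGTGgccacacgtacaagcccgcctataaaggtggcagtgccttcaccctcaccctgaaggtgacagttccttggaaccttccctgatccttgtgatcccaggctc

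Of the 6 tested AhR targets CITCO raised 3 in KO and the same number in WT: CYP1A1, CYP1A2 and ALDH3A1. CYP1A2, the caffeine-oxidising P450, held 2.35 and 2.42 CPM in KO CITCO, 0.468 and 0.152 CPM in KO DMSO, 3.14 and 2.30 CPM in WT CITCO, and 0.781 and 1.41 CPM in WT DMSO. It rose in both genotypes, and the interval of its difference, 0.83 [0.08, 1.58], was wide, with an adjusted p of 0.354. ALDH3A1, an aldehyde dehydrogenase, had means of 110 CPM in KO CITCO, 48.7 CPM in KO DMSO, 112 CPM in WT CITCO and 57.8 CPM in WT DMSO. It rose by 1.16 in KO and 0.95 in WT, with a difference of 0.21 (adjusted p = 0.293). TIPARP and LRAT had differences of 0.27 and 0.32 with no called response in either genotype. The list had 1 called positive difference and a median of 0.30. Among all loci tested 0.386% rose in KO, 1.18% rose in WT and 0.108% had a called positive difference.

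Several genes of hepatocyte metabolism fell with CITCO in WT and had no called response in KO, which gives positive differences. PCK1, the enzyme that commits carbon to gluconeogenesis, held 20.3 and 19.5 CPM in KO CITCO, 15.9 and 16.4 CPM in KO DMSO, 37.0 and 33.3 CPM in WT CITCO, and 49.3 and 46.7 CPM in WT DMSO. CITCO lay above DMSO in KO and below it in WT, and KO lay below WT throughout. The response was 0.29 in KO (adjusted p = 0.0539) and -0.45 in WT, a difference of 0.74 [0.54, 0.94] with an adjusted p of 0.000877. G6PC, which releases glucose from the hepatocyte, had means of 94.9 CPM in KO CITCO, 99.3 CPM in KO DMSO, 61.3 CPM in WT CITCO and 77.6 CPM in WT DMSO, and its difference of 0.27 [0.13, 0.41] was not called (adjusted p = 0.0981). Of the 14 tested gluconeogenesis and glycogen genes, PCK1 alone had a called difference, against 0.336% of all loci tested. The list median was 0.03.

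Of 6 tested alcohol dehydrogenases, ADH4 and ADH1A had a called positive difference, against 0.108% of all loci tested. The 6 genes were grouped with earlier results of these data known. ADH4 held 130 and 129 CPM in KO CITCO, 130 and 130 CPM in KO DMSO, 109 and 106 CPM in WT CITCO, and 156 and 143 CPM in WT DMSO. The KO groups overlapped, and WT CITCO was the lowest group, with a difference of 0.47 [0.33, 0.61]. ADH1A held 126 and 126 CPM in KO CITCO, 117 and 115 CPM in KO DMSO, 161 and 167 CPM in WT CITCO, and 203 and 200 CPM in WT DMSO. It fell by 0.29 in WT with 0.12 in KO (adjusted p = 0.242), and its difference was 0.42 [0.29, 0.54]. ADH1B fell by 0.16 in WT with a difference of 0.17 that was not called (adjusted p = 0.131), and ADH6, ADH5 and ADH1C had differences of 0.09, 0.05 and 0.06, none called.

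Secreted and membrane proteins were among the rest. AFM, a vitamin E-binding protein of plasma, fell by 0.34 in WT with 0.02 in KO, a difference of 0.35 (adjusted p = 0.0435). FGB, the fibrinogen beta chain, held 3678 and 3688 CPM in KO CITCO, 3434 and 3508 CPM in KO DMSO, 2661 and 2636 CPM in WT CITCO, and 3020 and 2912 CPM in WT DMSO, with a difference of 0.25 [0.15, 0.34]. It was the single called member among the 15 tested acute phase genes, against 0.336% of all loci tested. INHBE, a hepatokine of the activin family, fell by 0.34 in WT (difference 0.31), and ATP2B2, a calcium pump of the plasma membrane, fell by 0.74 in WT and had -0.03 in KO (difference 0.71). HLA-K, a pseudogene of the HLA class I family whose reads may come from its relatives, fell by 0.60 in WT (difference 0.71). All of these but PCK1, ADH4 and ADH1A were lost under 6 to 9 of the 22 alternative settings.

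A few positive differences came from a rise in KO. RMDN2-AS1, an antisense RNA, held 94.7 and 95.1 CPM in KO CITCO, 58.9 and 60.6 CPM in KO DMSO, 16.2 and 16.3 CPM in WT CITCO, and 15.7 and 14.2 CPM in WT DMSO. It rose 1.59-fold in KO, with 1.09-fold in WT that was not called (adjusted p = 0.369), and its difference was 0.54 [0.36, 0.73], lost under 4 settings. Without stated strandedness its reads cannot be told from those of the gene on the other strand. ANKRD36, an ankyrin repeat gene, rose by 0.44 in KO, with -0.22 in WT (adjusted p = 0.241) and a difference of 0.66, lost under 8 settings. MBNL3, a splicing regulator, SWT1, CCDC144CP and C9orf84 had called differences of 0.45, 0.81, 0.97 and 1.30 with no called response in either genotype, and each was lost under 9 to 13 settings. A further 4 called loci, of either sign, are not named here.

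The remaining negative differences were scattered over functions. TSKU, the secreted proteoglycan tsukushi of hepatocytes, held 230 and 224 CPM in KO CITCO, 220 and 204 CPM in KO DMSO, 448 and 451 CPM in WT CITCO, and 264 and 291 CPM in WT DMSO. CXCL13, a B cell chemokine, held 71.5 and 78.7 CPM in KO CITCO, 82.0 and 83.3 CPM in KO DMSO, 557 and 541 CPM in WT CITCO, and 418 and 377 CPM in WT DMSO. Both rose in WT with no called response in KO, and the differences were -0.60 [-0.74, -0.45] for TSKU and -0.61 [-0.77, -0.45] for CXCL13. ALDH1L1, a folate enzyme, had the same pattern, with 0.38 in WT, -0.05 in KO and a difference of -0.43. HSPA1A and HSPA1B, near-identical heat shock protein genes that may share reads, had differences of -0.42 and -0.43, lost under 10 and 7 of the 22 settings. CYP4F8, a P450 with close relatives beside it, had -0.28, lost under 8.

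ANO1, a chloride channel, held 8.98 and 9.98 CPM in KO CITCO, 11.3 and 9.39 CPM in KO DMSO, 4.70 and 4.30 CPM in WT CITCO, and 2.32 and 2.47 CPM in WT DMSO. It rose 1.88-fold in WT and its KO groups overlapped, with a difference of -0.90 [-1.25, -0.56] that was lost under 5 settings. MSC, a transcription repressor, had a difference of -0.51 that was lost under 11 settings.

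Most of the loci with a negative difference showed a rise in WT that was smaller or not called in KO, but KRT19 and the ribosomal RNA copies did not. KRT19, the biliary keratin, held 68.2 and 63.3 CPM in KO CITCO, 83.9 and 84.0 CPM in KO DMSO, 433 and 437 CPM in WT CITCO, and 383 and 432 CPM in WT DMSO. It fell by 0.35 in KO with 0.10 in WT (adjusted p = 0.455), a difference of -0.45 [-0.63, -0.26]. Among the 7 tested biliary and progenitor markers it was the single called difference, and SOX4 also fell in KO, by 0.39. Of all loci tested, 0.336% had a called difference and 0.424% fell in KO. SPP1, osteopontin, had 0.17 in KO (adjusted p = 0.378) and rose by 0.59 in WT, with a difference of -0.42 that was not called (adjusted p = 0.0927). CD24, CLDN4, KRT7 and SOX9 had no called response, at -0.03, 0.14, 0.14 and -0.06 in KO. The KRT19 call was lost under 8 of 22 settings. The 8 loci of RNA5-8S5, copies of the 5.8S ribosomal RNA that cannot be told apart by their reads, summed to 26.6 and 36.7 CPM in KO CITCO, 77.9 and 103 CPM in KO DMSO, 51.5 and 61.8 CPM in WT CITCO, and 38.9 and 45.5 CPM in WT DMSO. They are 1 signal counted 8 times, with KO DMSO the highest group and differences near -1.82, the value of the first copy, whose call was lost under 5 settings. Ribosomal RNA in a library also follows how well it was removed, and how this was done is not given in the sources used here.

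Several groups answered CITCO in both genotypes without a called difference. Of 29 tested cell cycle genes CITCO raised 6 in KO and 11 in WT, and none had a called difference, with medians of 0.23 in KO, 0.28 in WT and -0.04 for the difference. Over all loci tested 0.386% rose in KO, 1.18% rose in WT and 0.336% had a called difference. With so few differences called anywhere, none in 29 genes does not set the list apart. MKI67, a marker of dividing cells, held 173 and 176 CPM in KO CITCO, 146 and 139 CPM in KO DMSO, 60.6 and 61.8 CPM in WT CITCO, and 50.01 and 46.5 CPM in WT DMSO. It rose 1.22-fold in KO and 1.27-fold in WT, and the difference of -0.05 [-0.20, 0.09] spans 0. Of 20 tested hypoxia and glycolysis genes CITCO lowered 6 in KO and 8 in WT, against 0.424% and 1.02% of all loci tested. NDRG1, a hypoxia-induced gene, fell by 0.36 in KO and 0.42 in WT, and CA9, a carbonic anhydrase, by 0.23 and 0.32, with differences of 0.06 and 0.08.

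Transporters and the receptors themselves did not differ by call either. With 0.336% of all loci tested called, lists of this size with none called are not set apart. Among 20 tested transporters, ABCC2, the canalicular export pump, rose by 0.28 in KO and 0.34 in WT, with a difference of -0.06 [-0.18, 0.06]. ABCB1, the drug pump P-glycoprotein, had no called response in either genotype, with 0.11 in KO and 0.08 in WT. ABCB11, the bile salt export pump, had means of 48.0 CPM in KO CITCO, 47.2 CPM in KO DMSO, 25.6 CPM in WT CITCO and 18.6 CPM in WT DMSO. It rose in WT by 0.45, and its difference of -0.43 did not pass (adjusted p = 0.0754). NR1I3 and NR1I2 had differences of 0.21 [-0.05, 0.47] and 0.03 [-0.16, 0.23], and none of the 33 tested loci of nuclear receptors and CAR partners had a called difference. CYP7A1, the first enzyme of bile acid synthesis, had 0.31 [0.11, 0.51] (adjusted p = 0.207).

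**Figure D4:**
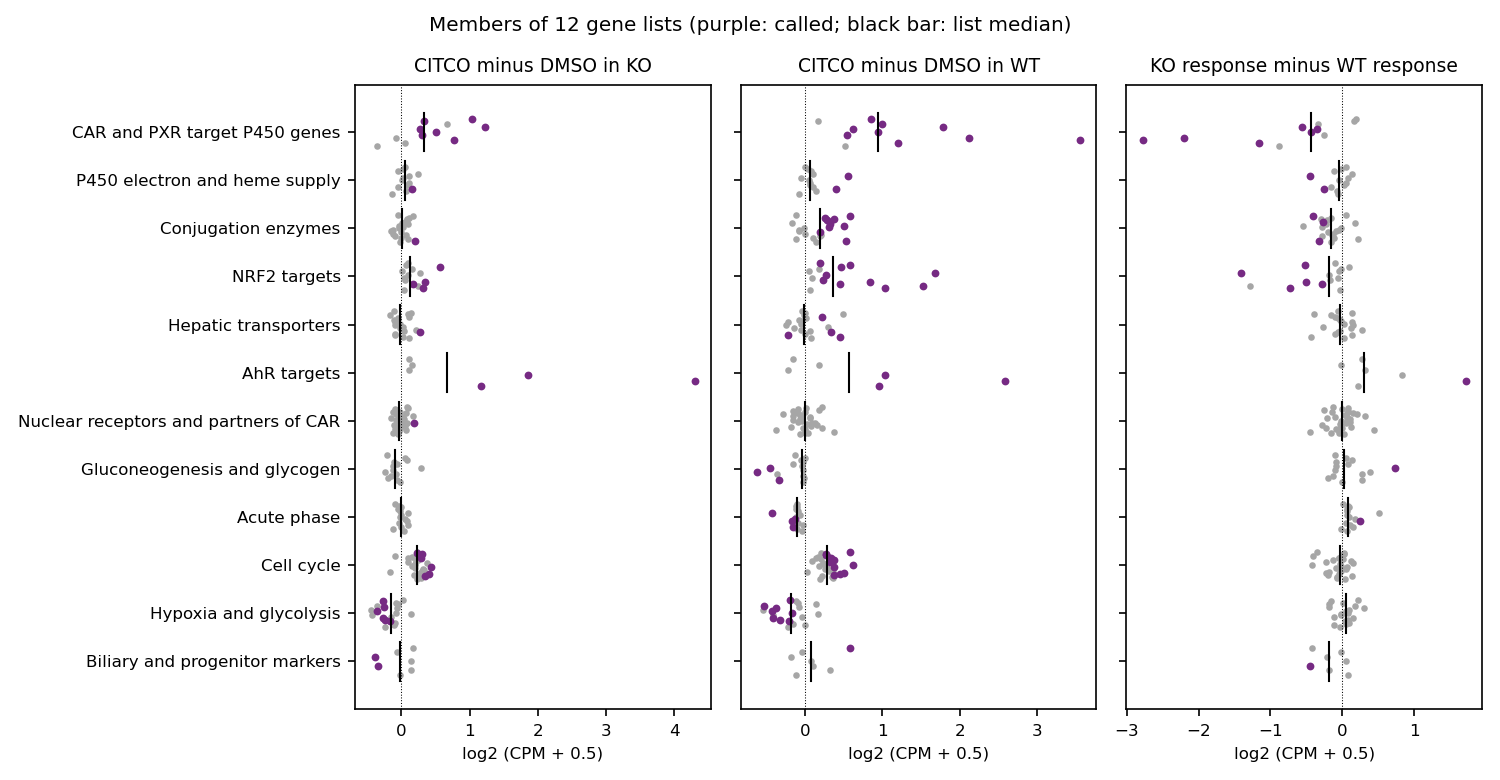
Members of 12 gene lists (points, called in purple) with list medians (bars), as the CITCO response in KO (left), in WT (middle) and as KO minus WT (right), all log2(CPM + 0.5). The P450 targets have medians of 0.33, 0.94 and -0.43, and the cell cycle genes 0.23, 0.28 and -0.04.

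Whether PB shows the same dependence was asked by comparing the KO minus WT contrast under CITCO with that under PB, in which the DMSO libraries cancel. It differed at 219 loci (1.39% of those tested), positive at 62 (0.393%) and negative at 157 (0.994%). Among called loci CYP2B6 had the largest change, -3.68 [-3.85, -3.50]. It reached 17.4 and 16.1 CPM in KO CITCO and 435 and 424 CPM in WT CITCO, but 230 and 226 CPM in KO PB and 442 and 447 CPM in WT PB. The KO PB libraries lay far above the KO CITCO libraries and below both WT groups, and the WT groups lay between 424 and 447 CPM.

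The same sign was called for 9 of the 11 P450 targets. CYP2C8 had -1.90, with 46.5 and 47.7 CPM in KO CITCO, 257 and 253 CPM in WT CITCO, 276 and 280 CPM in KO PB, and 415 and 383 CPM in WT PB. CYP2B7P had -1.71, CYP2A6 -1.30 and CYP3A7 -1.25. Their PB responses were 1.935 in KO and 2.422 in WT for CYP2B7P, 1.523 and 1.373 for CYP2A6, and 3.536 and 2.096 for CYP3A7. The CITCO difference was called negative for CYP2B7P and CYP2A6, but was 0.19 and not called for CYP3A7. The shared sign therefore covers different patterns. CYP3A4 was called with the opposite sign, at 0.20 (adjusted p = 0.0450). Its CITCO responses were 1.22 in KO and 1.78 in WT, and its PB responses 3.29 in KO and 4.05 in WT. The CYP3A4 call was lost under 9 of the 21 alternative settings.

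Outside the P450s, AKR1B10 had -1.03, AKR1C2 -0.82, GPX2 -0.81, TSKU -0.88, POR -0.64 and EPHX1 -0.58, all called. ABCB1 and ALAS1, with no called difference under CITCO, had -0.75 and -0.68, with PB responses of 1.51 in KO and 0.73 in WT for ABCB1 and of 1.06 in KO and 0.45 in WT for ALAS1. CYP1A1 had 2.08 and G6PC 0.66. For ADH4 and ADH1A it was 0.33 and 0.26, both called, and for PCK1, CXCL13, ALDH1L1 and ATP2B2 it was 0.17, -0.14, -0.14 and -0.09, none called.

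**Figure D5:**
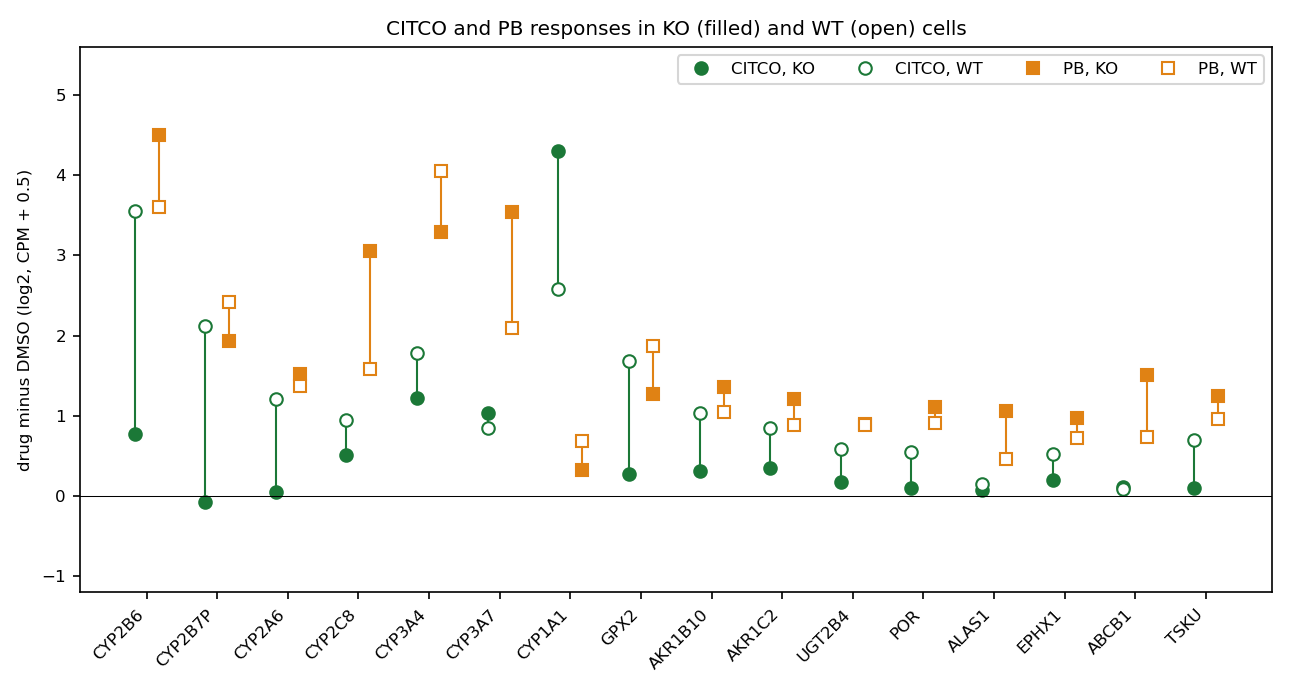
Response to CITCO (circles) and PB (squares) in KO (filled) and WT (open) for 16 genes, log2(CPM + 0.5), drug minus DMSO. For CYP2B6 the CITCO responses are 0.78 in KO and 3.55 in WT, and the PB responses 4.504 and 3.604.

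The authors also deposited a table for this contrast, whose name sets KO CITCO beside WT CITCO. Over its 14161 loci, the log2 fold changes in the authors' deposited table had r = 0.994 with the difference of the CITCO responses and r = 0.194 with KO minus WT under CITCO. These are values across loci, which are no independent replicates, and they show that the table holds the difference of responses. The authors' deposited table has 187 loci under an FDR of 0.05, 95 positive and 92 negative. Of these, 47 were called here, which is 25.1% of the authors' loci and 88.7% of the 53, and CYP1A1 and C9orf84 are absent from it. The authors' deposited table gives CYP2B6 a log2 fold change of -2.76, GPX2 -1.47, CYP2A6 -1.16, CYP3A4 -0.56 and PCK1 0.75.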

How the data were processed

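Reads were aligned and counted by the authors. Per the submitters' processing notes, which state no role or order, the tools were edgeR 2.12, Cuffdiff 2.1.1, Cufflinks 2.1.1, TopHat2 2.0.10 and Bowtie 1.0.0. The notes name both GRCh38 and GRCh37, so no locus coordinates are given. The authors deposited 1 table of 15822 loci with symbols, a normalized signal called CPM. Library totals were 900290 to 935052 in KO and 1071810 to 1113721 in WT, so it is not plain CPM, although CPM had been assumed. The test on the log scale was kept. Every value was a whole multiple, within 0.001 reads, of 1 read. A separate format check passed the recovered reads of WT but refused those of KO, so count models were run for WT alone and the planned count test of the difference was not run. A locus carries 1 symbol and may cover neighbouring genes. The authors also deposited tables of log2 fold changes with p-values and FDR, used side by side.

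The test was limma 3.58.1 (R 4.3.3) with a variance trend on log2(CPM + 0.5), which understates changes of low genes. It used all 12 libraries, with 6 residual degrees of freedom. The code was run on simulated data with independent duplicates, equal depth and a constant dispersion. The real libraries need not share these traits, so that run does not give their error rate. The real duplicates differed beyond sampling noise (chi-square per degree of freedom 4.15 to 10.4). The replicate 1 minus replicate 2 deviations of 9747 loci were correlated between groups, with values between -0.233 and 0.487. The highest were 0.487 (WT DMSO with WT PB), 0.473 (KO DMSO with KO PB) and 0.413 (KO DMSO with WT DMSO). Some groups may thus share a part by replicate number. The main test did not use the numbers as pairs. Alternatives were scaling, pseudocount, filter, prior variance, a replicate block, the 8 libraries alone, each library left out, a linear scale, and edgeR 4.0.16 and DESeq2 1.42.0 in WT.

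Named genes were 22 genes of drug metabolism and controls, up to 12 called loci per direction with the largest difference that reached a mean of 5 CPM in some group, and called members of 28 gene lists. The members and lists were chosen with earlier results of these data known. ALDH1L1, CDRT1, HSPA1A, HSPA1B, CYP4F8, INHBE, C9orf84 and MSC are called loci outside that rule, named after their values were seen, and some genes that met the rule or a list are not reported here. Of 483 list entries, 419 matched a locus by symbol and 2 by an older symbol. Promoters are RefSeq's, GRCh38.p14, found for 37 of the 54 named genes.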

Additional observations from a re-analysis of the deposited data

Results flagged for a closer look

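The 42 named genes with a called difference are listed here because the CITCO responses of the 2 genotypes differed by the test of the difference itself (KO minus WT, log2, limma, adjusted over all tested loci). No group had enough libraries for a test of single outlying libraries.

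Among P450 genes the values were -2.78 for CYP2B6, -1.16 for CYP2A6, -0.554 for CYP3A4, -0.429 for CYP2C8 and -0.278 for CYP4F8. The pseudogene CYP2B7P had -2.2, and the P450 partners POR and CYB5A had -0.448 and -0.25. CYP1A1 had 1.72. Genes of the conjugation list had -0.413 (UGT2B4), -0.328 (EPHX1) and -0.274 (UGDH). NRF2 targets had -1.41 (GPX2), -0.724 (AKR1B10), -0.523 (SRXN1), -0.501 (AKR1C2) and -0.285 (AKR1C1).

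The other negative values were -1.82 for RNA5-8S5, -0.902 for ANO1, -0.606 for CXCL13, -0.596 for TSKU, -0.523 for TRIM16L, -0.513 for MSC, -0.51 for CDRT1, -0.449 for KRT19, -0.428 for ALDH1L1, -0.426 for HSPA1B and -0.422 for HSPA1A.

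The other positive values were 1.3 for C9orf84, 0.968 for CCDC144CP, 0.812 for SWT1, 0.74 for PCK1, 0.714 for ATP2B2, 0.713 for HLA-K, 0.66 for ANKRD36, 0.545 for RMDN2-AS1, 0.468 for ADH4, 0.445 for MBNL3, 0.416 for ADH1A, 0.354 for AFM, 0.31 for INHBE and 0.249 for FGB.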

How the results depend on the processing

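Of the 42 named genes with a called difference, 5 kept the call under all 22 settings (CYP2B6, CYP2B7P, CYP2A6, GPX2 and AKR1B10), 14 lost it only with a constant prior variance, and 23 also under others. With a constant prior variance the difference was called at 6 loci, the KO response at 20, the WT response at 96 and the contrast with PB at 44. In WT the count models called 137 loci (edgeR) and 221 (DESeq2). Leaving out 1 library gave 23 to 491 loci for the difference, 40 to 209 for KO, 109 to 992 for WT and 82 to 413 against PB. The count for the difference moved most without KO_CITCO replicate 1 (23), WT_CITCO replicate 2 (25) and WT_DMSO replicate 2 (491, which include all 53), and was 34 without KO_CITCO replicate 2, KO_DMSO replicate 1 or WT_CITCO replicate 1, and 103 and 105 without WT_PB replicates 1 and 2. A library left alone in its group is assumed to vary like the other groups, and the cause was not tested. Scaling to the total gave 85 higher and 55 lower loci in KO, 252 higher and 102 lower in WT, and 14 higher and 40 lower for the difference. With 1 library left out the sign turned for ABCB1 (-0.003337 to 0.05344, lowest without WT_CITCO replicate 1), NR1I2 (-0.005155 to 0.07467, lowest without WT_CITCO replicate 2), MKI67 (-0.1042 to 0.001117, highest without WT_DMSO replicate 2) and ALAS1 (-0.1522 to 0.00622, highest without KO_CITCO replicate 2), none of them called, and for CYP3A4 on the linear scale (879.3 CPM), by construction of that scale. With the replicate number as a block the difference was called at 51 loci, the KO response at 117, the WT response at 367 and the contrast with PB at 202. The planned count test of the difference was not run. With 2 libraries a group, a difference at a few CPM could be missed at this depth.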

Other observations

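Other gene groups had few or no called differences between the CITCO responses of KO and WT. Over all loci tested the share was 0.336%, so lists with none called are not set apart. For the responses, 0.386% of all loci rose and 0.424% fell in KO, and 1.18% rose and 1.02% fell in WT. Of 17 tested interferon response genes, 2 fell in WT, none changed in KO and none had a called difference, with a list median of 0.12. IFI44L, an interferon-induced gene, had the largest value, 0.81 (adjusted p = 0.171). Of 21 tested cholesterol synthesis genes 4 fell in WT and none in KO, and of 15 fatty acid and triglyceride synthesis genes 3 fell in WT and 2 in KO, with no called difference in either list. Of 20 fatty acid oxidation genes 2 fell in KO, and in WT 1 rose and 2 fell.

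Of 14 tested hepatocyte markers 5 fell in WT and none in KO, and FGB was the single called difference. The urea cycle list (15 tested) had 1 gene higher and 2 lower in WT, and the IGF axis (14 tested) 2 lower in WT, with none called in KO. The bile acid (15), p53 (16) and unfolded protein response (15) lists had no called difference. Of 9 tested mesenchymal markers 1 fell in WT, of 3 endothelial and immune markers 1 rose in WT, of 24 ribosomal protein genes 2 rose in WT and of 6 common reference genes 1 fell in WT, with no called difference in these lists. The 10 tested mitochondrially encoded genes and 6 histone genes had no called response in KO or WT.

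Among uncalled loci the lowest differences were -2.41 for GSTA6P (adjusted p = 0.291), a pseudogene, and -2.22 for SERPINA2 (adjusted p = 0.646).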
